A study of Mus musculus with 6 samples.

Results

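Mitochondrial ribosomal protein genes encode the proteins of the ribosome that works inside mitochondria. They were taken as every probe set whose single gene symbol starts with Mrpl or Mrps, the symbols of the large and the small subunit. The array carried 156 such probe sets of 76 genes among 45037 probe sets. Of these, 119 probe sets of 75 genes read above log2 4, the level used for detection, on at least 3 of the 6 arrays and were kept, 74 of them Mrpl (46 genes) and 45 Mrps (29 genes). Over the whole array 19613 probe sets were kept. A single gene, Mrpl55, a protein of the large subunit, had no kept probe set (highest value 2.64).

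Hematopoietic stem cells were sorted from bone marrow of male C57Bl/6 (CD45.1) mice, 10 weeks old, as Lineage-, Sca-1+ and c-Kit+ cells of the side population, the flow cytometry gate that selects for efflux of a DNA-binding dye. The Lower-SP cells came from the lower and the Upper-SP cells from the upper part of that gate. Purity on re-sorting was above 98%. Each group had 3 arrays, 1 for each of 3 pools of mice sorted on separate days, and their number limits the precision. All groups share strain, sex and age, and no genetic change or treatment beyond the sort is named. Values are log2 expression per probe set. Every difference is Lower-SP minus Upper-SP on that scale, and "called" means an adjusted p under 0.05 from limma over all 19613 kept probe sets. With bulk RNA, fewer cells with a transcript and less transcript per cell cannot be told apart.

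All mitochondrial ribosomal proteins are encoded in the nucleus, made in the cytosol and imported. They assemble with ribosomal RNA of the mitochondrial genome into a ribosome that translates only the few mitochondrial messages, which code for core subunits of the respiratory chain. Part of the set descends from bacterial ribosomal proteins and part exists only in mitochondria. Hematopoietic stem cells are known for relying little on respiration while quiescent.

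The sorted cells carried stem cell transcripts: all 9 annotated stem cell markers of a list of 10 read above log2 4 on every array, while 0 of 4 erythroid and 0 of 6 T and NK cell markers did on any array. Of 5 B cell markers, 2 to 3 were above it on each array, with Cd79b at 6.29 to 7.68. Cd79a and Pax5 stayed under it on every array. The log2 of the summed level of the 5 was 8.02, 8.87 and 6.80 in Lower-SP and 7.82 to 8.05 in Upper-SP. Ighm was uneven in Lower-SP, with 5.09, 8.05 and 2.34 at 1 kept probe set and 4.39, 6.71 and 4.40 at another. In Upper-SP these read 5.07 to 5.84 and 4.07 to 4.74, and neither was called. Neutrophil transcripts were uneven. The log2 of the summed level of the 10 neutrophil markers was 14.3 and 13.8 in Lower-SP replicates 1 and 2, 11.9 in Lower-SP replicate 3 and 12.1 to 12.3 in Upper-SP. Of the granule genes, Prtn3 read 11.4 to 12.1 on all arrays and was called lower in Lower-SP (-0.60), Elane stayed under log2 4 on every array and Mpo on all but Lower-SP replicate 1 (4.25). S100a8 (4.17), S100a9 (3.90), and Chil3 and Lcn2, both under log2 4 in all of Upper-SP, were called higher in Lower-SP. Summed plasma cell markers ran from 5.62 to 9.53 in Lower-SP and from 11.3 to 12.6 in Upper-SP, with Igha called lower in Lower-SP (-4.42). Of the 5 plasma cell markers Mzb1, Derl3 and Tnfrsf17 stayed under log2 4 on every array. The log2 of the summed level of 7 cell cycle markers was 13.6 and 13.2 in Lower-SP replicates 1 and 2. It was 12.6 in Lower-SP replicate 3 and 12.7 to 13.0 in Upper-SP. Mki67 read 8.73 to 11.2 in Lower-SP and 9.35 to 9.61 in Upper-SP and was not called. Of 10 kept cell cycle probe sets 1 was called lower and 1 higher. The lower one was of Mcm2 (-1.38, adjusted p = 0.012), whose other kept probe set differed by 0.31, not called. The higher one was of Rrm2 (1.18, adjusted p = 0.033). Of 14 kept stem cell probe sets 4 were called lower and 0 higher, beside 17.5% and 10.7% of all kept probe sets. The part of these transcripts in the differences below was not tested.

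In Lower-SP the large subunit genes that changed all fell, and small subunit genes changed in both directions. Mrpl13 (1460354_a_at), though, was called higher with cyclic loess scaling (0.66, adjusted p = 0.048) and also without Upper-SP replicate 3. Of the 119 kept probe sets 21 were lower and 4 higher, and 94 did not pass; 7 of the called changed at least 2-fold. In all 21.0% were called, where 28.1% of all kept probe sets were called and 15.5% were called with at least a 2-fold change. Over all kept probe sets 17.5% were called lower and 10.7% higher, so the share of members lower, 17.6%, was that of the background, and the share higher, 3.36%, was under it. Of the kept probe sets with 1 symbol, as all members have, 18.4% were called lower and 8.88% higher, and 60.8% lay below 0. Among the 21 lower, 2 (a probe set each of Mrpl50 and Mrpl52) were above log2 4 in Upper-SP alone and so were kept through that group. Without such probe sets, an alternative chosen after seeing the data, 19 of 117 members (16.2%) were lower and 4 (3.42%) higher, against 17.2% and 10% of all. By subunit, 16 Mrpl probe sets were lower and 0 higher (24 had an unadjusted p under 0.05 by limma, in either direction), against 5 lower and 4 higher of the Mrps probe sets. The groups did not overlap in 40 members on the lower and 11 on the higher side, where 27.9% and 18.2% of all kept probe sets did so, and 72.3% of members lay below 0 against 58.2% of all. With cyclic loess scaling 14 members were lower and 5 higher, that is 12 lower and 1 higher for Mrpl and 2 and 4 for Mrps, where 12.4% of all kept probe sets were lower and 13.2% higher.

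**Figure D1:**
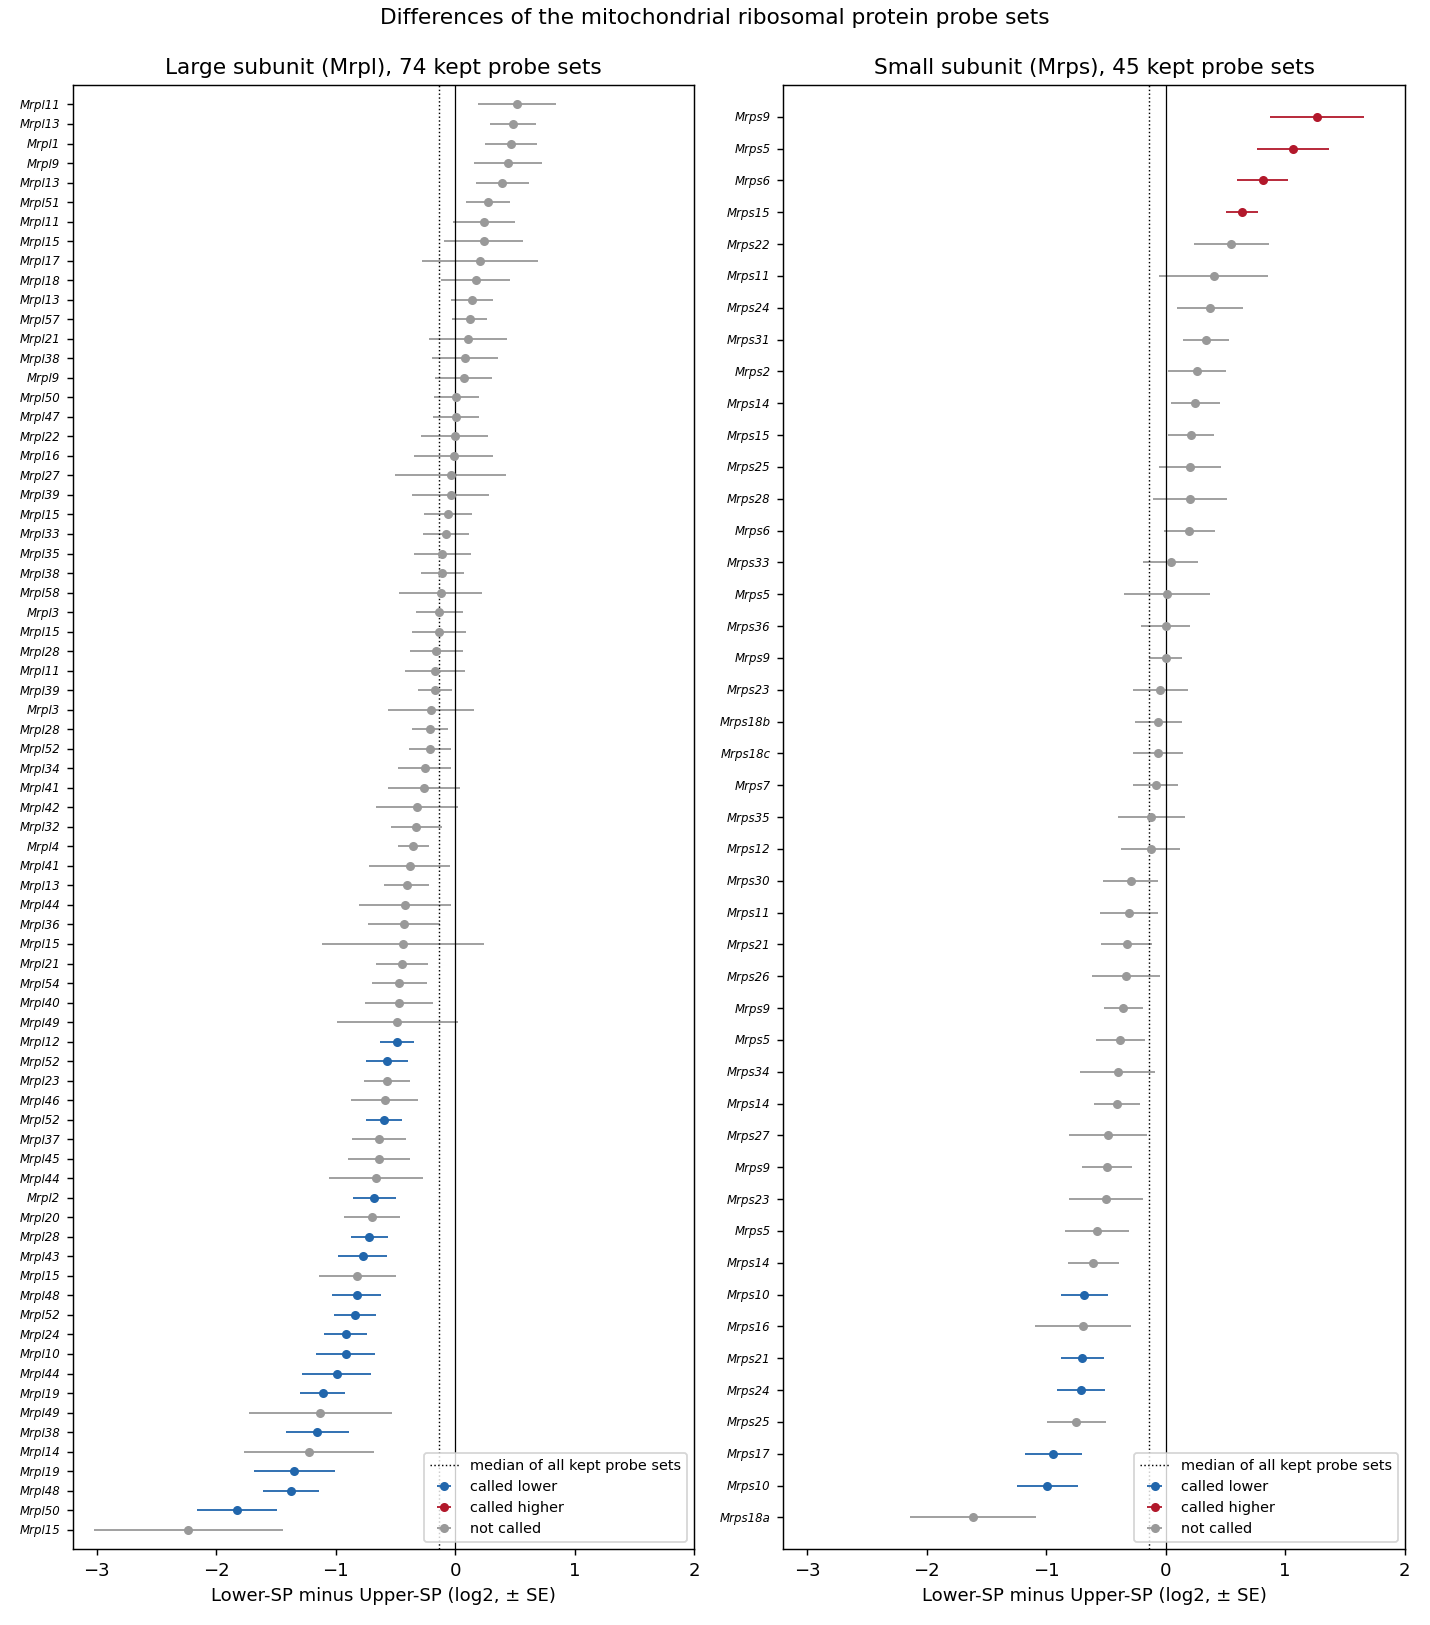
Lower-SP minus Upper-SP difference (log2, ± SE) of each kept probe set, ordered within the large (left) and small (right) subunit, with the gene symbol on the vertical axis. Blue points were called lower and red points higher, and all 4 red points lie in the small subunit panel.

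Without Upper-SP replicate 1 the member calls dropped from 25 to 3, where 3.98% of all kept probe sets were called lower and 4.51% higher. They dropped to 5 without Upper-SP replicate 2 (all kept probe sets 7.18% and 6.19%). Without Lower-SP replicate 2 they dropped to 10 (8.7% and 7.18%) and without Lower-SP replicate 1 to 14 (11.5% and 7.35%). Calls over all kept probe sets thus fell too, from 17.5% lower and 10.7% higher. Lower-SP replicates 1 and 2 had the highest neutrophil sums. Without both, none of the 18 called probe sets picked by the naming rule below changed sign. In all of these but Mrps9 (1439210_at) the groups do not overlap, so leaving arrays out could not change it. Without both arrays, Mrpl48 (1428302_at) differed by -1.26, Mrps5 (1453954_a_at) by 0.53 and Mrps9 (1439210_at) by 0.75. That fit leaves 1 Lower-SP array, so its calls are not given. Mrpl48, Mrpl19 and Mrpl50 were called with any single array left out, each at 1 probe set. That of Mrpl50 was above log2 4 in Upper-SP alone, and the filter was not redrawn for these fits, so they do not test its being kept. The other Mrpl50 probe set differed by 0.01.

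Promoters of the member genes were read from RefSeq (GRCm38.p6; 250 bases before to 50 after the start, 300 in all), which held 66 of the 75 genes, with 72 promoters. The letters CCGGAAG, the core bound by ETS factors, stood on either strand in 34.7% of member promoters, 18.5% of the promoters of all genes with a kept probe set and 8.86% of all 32851 promoters. The palindromic site of NRF1, a factor known for nuclear genes of mitochondrial proteins, stood with any bases at its centre in 18.1%, 14.0% and 6.23%, and in its strict form, a part of the former, in 4.17%, 2.29% and 0.971%. A YY1 core stood in 6.94%, 1.67% and 0.633%. By gene, the ETS letters stood in 4 of 14 called lower, 0 of 4 called higher and 21 of 48 with no call. Over all genes with a kept probe set it was 21.6%. The open NRF1 site stood in 4 of 14, 1 of 4 and 8 of 48 (16.4% of all such genes). The YY1 core stood in 0 of 14, 0 of 4 and 5 of 48 (2.08%). The promoters of 3 called genes show these cases, 5′ to 3′ on the gene's strand with matches in capitals: Mrpl52 with 2 ETS matches (chr14:54426659-54426958, plus strand), Mrpl44 with an open NRF1 match (chr1:79775768-79776067, plus strand) and Mrpl50 with no match (chr4:49521034-49521333, minus strand).
Mrpl52: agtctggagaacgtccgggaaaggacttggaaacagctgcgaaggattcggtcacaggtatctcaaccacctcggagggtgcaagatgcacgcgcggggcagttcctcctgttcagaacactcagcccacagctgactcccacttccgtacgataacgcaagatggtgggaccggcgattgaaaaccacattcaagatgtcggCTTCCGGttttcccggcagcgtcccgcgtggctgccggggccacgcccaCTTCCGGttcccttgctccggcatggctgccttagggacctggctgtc
Mrpl44: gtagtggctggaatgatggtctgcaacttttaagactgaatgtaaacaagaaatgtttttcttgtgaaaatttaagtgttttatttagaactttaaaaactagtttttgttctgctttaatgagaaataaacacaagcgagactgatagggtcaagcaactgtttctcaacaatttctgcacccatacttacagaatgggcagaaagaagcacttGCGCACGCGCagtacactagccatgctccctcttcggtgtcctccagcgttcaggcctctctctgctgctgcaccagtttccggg
Mrpl50: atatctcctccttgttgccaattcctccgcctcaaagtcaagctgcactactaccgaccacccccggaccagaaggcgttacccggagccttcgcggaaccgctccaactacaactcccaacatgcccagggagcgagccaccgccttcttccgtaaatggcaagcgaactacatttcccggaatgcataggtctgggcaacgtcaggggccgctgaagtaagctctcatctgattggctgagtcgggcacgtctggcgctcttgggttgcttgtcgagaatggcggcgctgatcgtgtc

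Mrpl48, a protein of the central protuberance, the crown of the large subunit that faces the small one, fell at both of its kept probe sets, and had the largest decrease among called members measured in both groups. At 1428302_at it read 5.78, 5.85 and 5.99 in Lower-SP and 7.44, 7.37 and 6.92 in Upper-SP, a 2.59-fold decrease (-1.37, SE 0.23, adjusted p = 0.0066). At 1437997_x_at the values were 7.56, 7.62 and 8.10 against 8.53, 8.62 and 8.61 (-0.82, SE 0.20). Neither pair of groups overlapped.

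Mrpl19, a homolog of a bacterial large subunit protein, also fell at both kept probe sets. The first, 1421914_s_at, read 7.69, 7.79 and 7.34 in Lower-SP and 8.68, 8.68 and 8.79 in Upper-SP (-1.11, SE 0.19, 2.15-fold, adjusted p = 0.0068). The second, 1450405_at, differed by -1.35 (SE 0.34), with Lower-SP replicate 3 lowest at 3.65.

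Mrpl50, a mitochondria-specific protein of the large subunit, was called at 1424164_at, which was above log2 4 in Upper-SP alone. This probe set was thus kept through the group where it is high. It read 3.74, 3.77 and 3.14 in Lower-SP and 5.93, 5.42 and 4.78 in Upper-SP. The Lower-SP values give only a bound, at least 2.60-fold lower with values under log2 4 set to 4 (adjusted p = 0.012 for values so set). A second Mrpl50 probe set, 1451266_at, read 4.54 to 4.59 in Lower-SP and 4.47 to 4.64 in Upper-SP, with overlapping groups and a difference of 0.01.

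The central protuberance held further called members. Of 13 kept probe sets of the 7 measured genes assigned to it here, 6 were lower and 0 higher, with a median of -0.57. Over all kept probe sets 17.5% were lower and 10.7% higher. Without the 1 probe set above log2 4 in Upper-SP alone it was 5 of 12. These 6 come from only 3 genes, Mrpl48, Mrpl52 and Mrpl38, so they are not independent. The measured genes so assigned without a call were Mrpl46 (-0.59), Mrpl40 (-0.47), Mrpl27 (-0.04) and Mrpl18 (0.17). Mrpl58 (-0.12), which was not counted in this region, was not called either. Mrpl52 was called lower at 3 of its 4 probe sets: 1415761_at read 8.08, 8.06 and 8.33 against 9.06, 9.11 and 8.83 (-0.84, SE 0.17, adjusted p = 0.012), 1415762_x_at fell by 0.59, which cyclic loess no longer called, and 1455366_at, above log2 4 in Upper-SP alone, was at least 1.09-fold lower, no longer called with values under log2 4 set to 4 (adjusted p = 0.53). The remaining one, 1460701_a_at, read 12.39, 12.86 and 12.99 against 12.90, 12.80 and 13.17 (-0.21, adjusted p = 0.38). Mrpl38 read 6.51, 6.65 and 6.60 against 7.98, 8.01 and 7.23 at 1447961_s_at (-1.15, SE 0.26, adjusted p = 0.017), while its other 2 probe sets differed by 0.08 and -0.11.

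Of the stalk that recruits translation factors, Mrpl10 and Mrpl12 fell. Mrpl10, the stalk base, read 4.85, 4.87 and 5.08 in Lower-SP and 6.23, 5.74 and 5.59 in Upper-SP (-0.92, SE 0.25, 1.89-fold, adjusted p = 0.029). Mrpl12, the stalk protein that is also known to bind the mitochondrial RNA polymerase, read 9.24, 9.18 and 9.32 against 9.86, 9.74 and 9.60 (-0.49, SE 0.14, adjusted p = 0.040). The groups did not overlap in either gene, and the Mrpl12 call was lost with cyclic loess (-0.30, adjusted p = 0.13). The 3 kept probe sets of Mrpl11, also of the stalk, ran from -0.17 to 0.52 and were not called, nor was Mrpl54 (-0.47).

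Around the tunnel through which the new protein leaves the ribosome, 1 of 6 probe sets was called. Mrpl24 read 9.44, 9.15 and 9.52 in Lower-SP and 10.38, 10.48 and 10.00 in Upper-SP (-0.92, SE 0.18, 1.89-fold, adjusted p = 0.011), with no overlap. Mrpl23 (-0.57, adjusted p = 0.061) and Mrpl45 (-0.64, adjusted p = 0.10) did not pass, and Mrpl22 (-0.002), Mrpl17 (0.21) and Mrpl47 (0.006) were near 0 or positive. Other large subunit genes called lower were Mrpl44 (-0.99, at 1 of 3 probe sets), Mrpl43 (-0.77), Mrpl28 (-0.72, at 1 of 3) and Mrpl2 (-0.68), a core protein next to the catalytic centre. The calls of Mrpl43 and Mrpl2 were lost with cyclic loess.

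**Figure D2:**
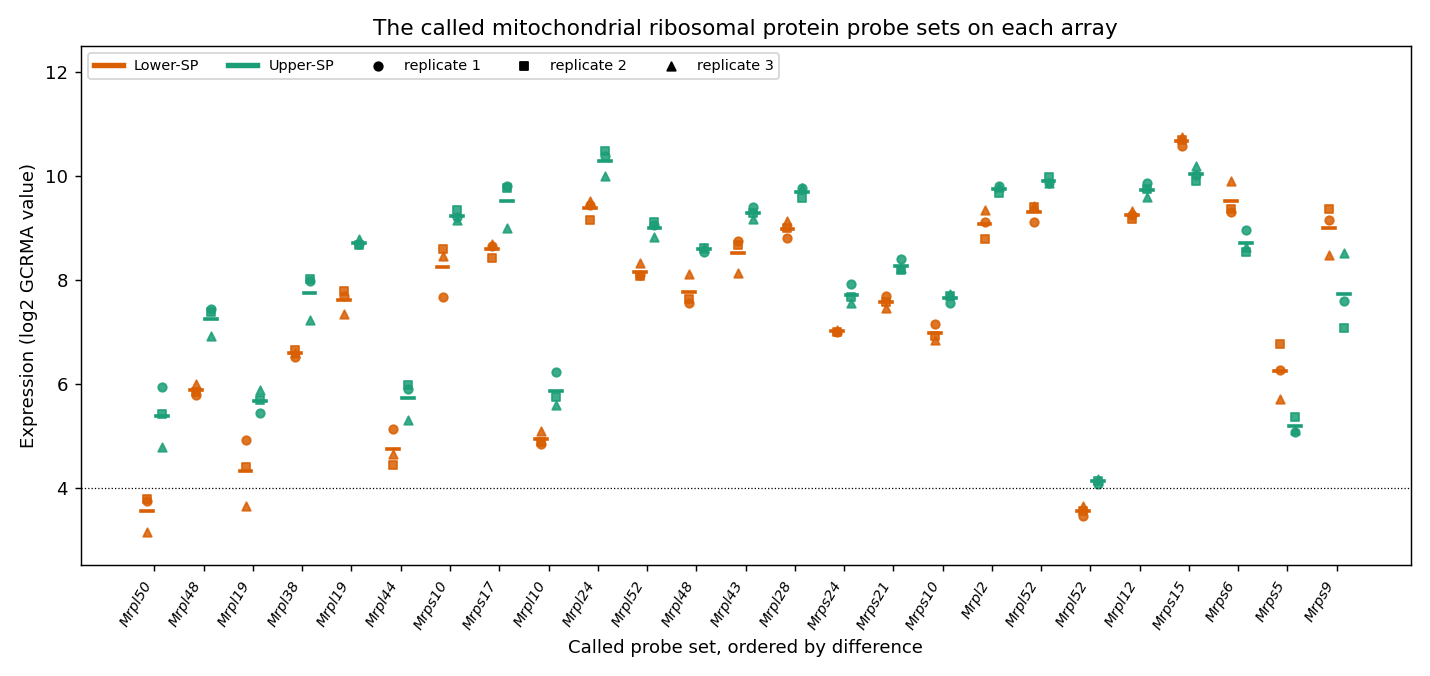
Log2 expression of the 25 called probe sets on each array (orange Lower-SP, green Upper-SP, marker shape by replicate number, bars for group means), ordered by difference. The dotted line is the detection level of log2 4. In 24 of the 25 the groups do not overlap, the exception being Mrps9.

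In the small subunit, Mrps10 fell at both of its probe sets. At 1428153_at it read 7.68, 8.60 and 8.47 in Lower-SP and 9.22, 9.35 and 9.15 in Upper-SP (-0.99, SE 0.26, adjusted p = 0.026), and at 1458999_at it differed by -0.68. Both calls were lost with cyclic loess. Mrps17 read 8.65, 8.42 and 8.68 against 9.80, 9.76 and 9.004 (-0.94, SE 0.24, adjusted p = 0.024). Mrps21 fell by 0.70 at 1 of 2 probe sets and Mrps24 by 0.71 at 1 of 2, the latter lost with cyclic loess. All 4 are homologs of bacterial small subunit proteins.

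Mrps15, Mrps6, Mrps5 and Mrps9, likewise of bacterial descent, were higher in Lower-SP, each at 1 of several probe sets. Mrps15 read 10.58, 10.69 and 10.75 in Lower-SP and 10.01, 9.90 and 10.18 in Upper-SP (0.64, SE 0.13, 1.56-fold, adjusted p = 0.013). Mrps6 read 9.30, 9.37 and 9.90 against 8.97, 8.54 and 8.63 (0.81, SE 0.22, adjusted p = 0.028). Neither of these groups overlapped, and the second kept probe set differed by 0.21 for Mrps15 and by 0.20 for Mrps6, not called.

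Mrps5 rose at 1453954_a_at, with 6.26, 6.77 and 5.71 against 5.08, 5.36 and 5.11 (1.06, SE 0.30, adjusted p = 0.035), while at 1448488_at the groups overlapped, with 7.18, 7.17 and 8.24 in Lower-SP (0.009), and the other 2 differed by -0.38 and -0.57. Mrps9 rose at 1439210_at (9.16, 9.36 and 8.47 against 7.60, 7.06 and 8.52; 1.27, SE 0.39, adjusted p = 0.046), where Lower-SP replicate 3 lay under Upper-SP replicate 3. Its 3 other probe sets differed by -0.49, -0.36 and -0.001, none called. The Mrps9 call was lost without each of Lower-SP replicates 1 and 2 and Upper-SP replicates 1 and 2 (adjusted p = 0.12 to 0.15).

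Probe sets of a gene often disagreed. Among 27 genes with at least 2 kept probe sets, 10 had at least 1 called lower, and 3 (Mrpl19, Mrpl48 and Mrps10) had all of them called lower. In 5 genes (Mrpl38, Mrpl50, Mrps5, Mrps9 and Mrps24) 1 probe set was called and another differed with the opposite sign, and 0 genes had probe sets called in both directions. For Mrps24 the lowered probe set read 6.99, 6.99 and 7.04 against 7.92, 7.67 and 7.55, whereas the other read 10.76, 11.09 and 11.42 against 10.81, 10.16 and 11.19 (0.37, adjusted p = 0.34). Mrpl15 had the widest range, from -2.23 (adjusted p = 0.070) to 0.24 over 6 probe sets, none called. Read by gene, 16 genes had a lower call, 4 a higher call and 55 none.

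**Figure D3:**
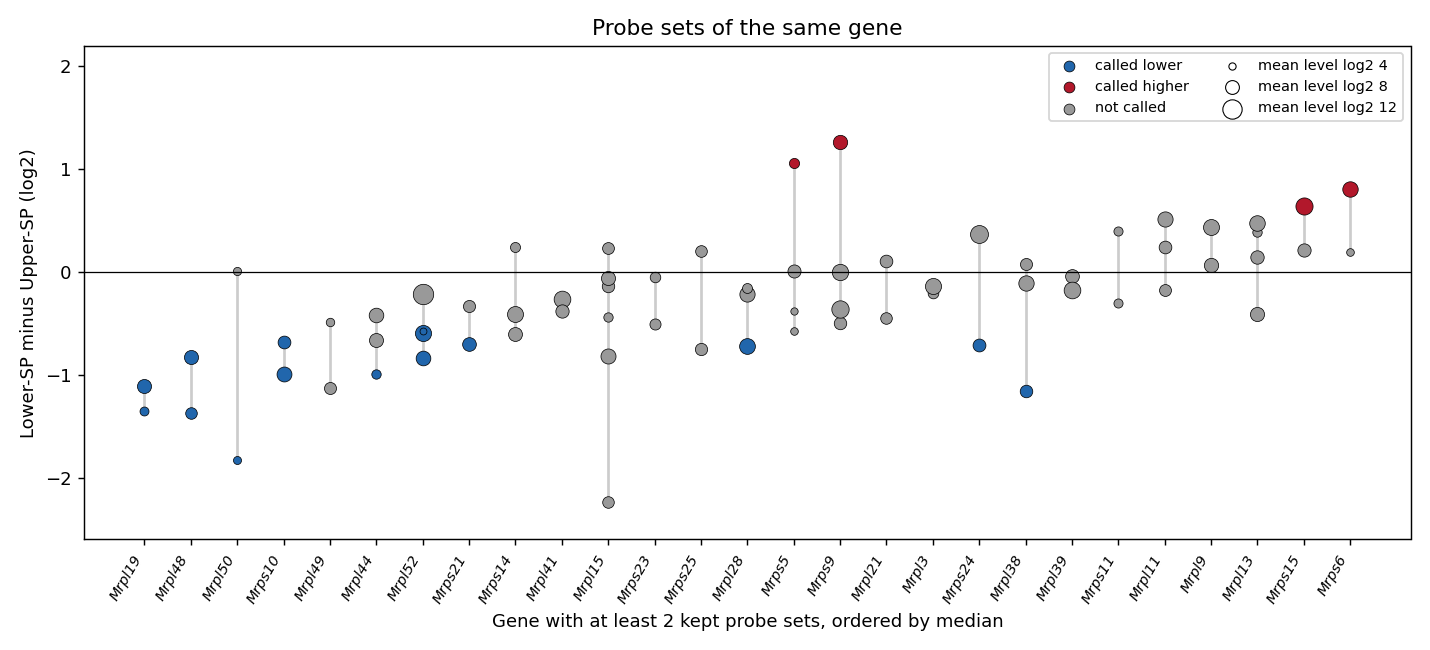
Lower-SP minus Upper-SP difference (log2) of each kept probe set of the 27 genes with at least 2, joined by a line within a gene and ordered by the gene's median. Larger points are brighter probe sets. Mrpl19, Mrpl48 and Mrps10 are blue throughout, while Mrpl50, Mrps5 and Mrps9 hold 1 coloured point beside grey ones on or across the 0 line.

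Bacterial protein S18 has 3 relatives here. Mrps18a, despite its symbol a protein of the large subunit in ribosome structures, read 7.94, 7.87 and 5.87 in Lower-SP and 9.04, 8.94 and 8.52 in Upper-SP (-1.61, SE 0.53, adjusted p = 0.055). The groups did not overlap, and Lower-SP replicate 3 stood far under the rest. Without that array, singled out after its value was seen, the difference was -0.93 and passed (adjusted p = 0.017). With any other single array left out Mrps18a did not pass. Its adjusted p from limma ran from 0.0035 to 0.18 over the settings tried. Mrps18b (-0.06) and Mrps18c (-0.06), both in the small subunit, read within 6.83 to 7.05 and 6.26 to 6.61 on all arrays. Mrps12, a decoding centre protein, differed by -0.12, Mrps30, also placed in the large subunit by structures, by -0.29, and Mrps36, now known as a component of a metabolic enzyme complex instead of the ribosome, by -0.0003. None of these was called.

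The median difference of the 119 members was -0.26, against -0.14 over all kept probe sets and -0.18 over those with 1 symbol. It was -0.32 for Mrpl and -0.12 for Mrps. Measured per array as the median deviation of probe sets from their own mean, Mrpl read -0.15, -0.10 and -0.17 in Lower-SP and 0.26, 0.15 and 0.16 in Upper-SP. Mrps read -0.12, -0.14 and 0.07 against 0.23, 0.14 and -0.05, and all kept probe sets -0.05, -0.09 and -0.03 against 0.10, 0.06 and 0.03. The Mrpl groups did not overlap, whereas replicate 3 of each Mrps group crossed over toward the other.

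The gap of -0.20 between the subunit medians, beside an SD of 0.13 between replicate arrays, moved most, of single arrays left out, with Lower-SP replicate 3: it was -0.04 without that array. It was -0.31 without Lower-SP replicate 2. It was -0.004 when just the probe sets that the annotation ties to RefSeq mRNAs were used (19 Mrpl, 10 Mrps) and -0.02 with array weights. Counting Mrps18a and Mrps30 as large and Mrps36 as neither gave -0.22.

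**Figure D4:**
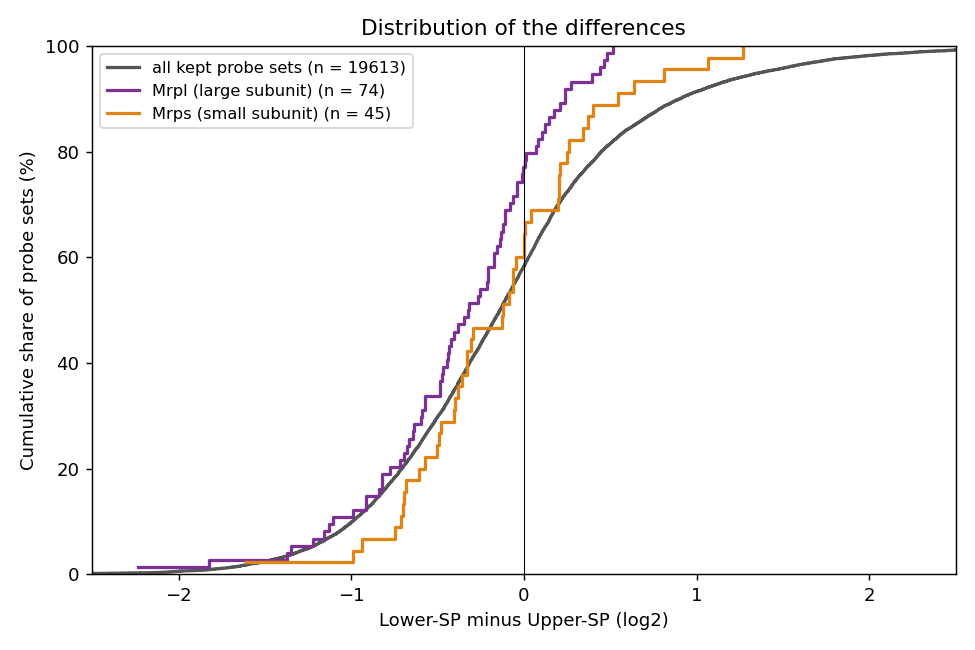
Cumulative share (%) of probe sets by Lower-SP minus Upper-SP difference (log2) for all 19613 kept probe sets, the 74 Mrpl and the 45 Mrps probe sets. The Mrpl curve lies left of the others at the upper end and stops at 0.52, whereas the Mrps curve reaches 1.27.

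The distance from the background depended on which probe sets were compared. With 1 probe set per gene, the brightest, the median was -0.25 for the 75 member genes and -0.24 for all 9460 genes, and 14.7% of member genes were lower and 2.67% higher against 20.7% and 7.05% of all genes. Among those tied to RefSeq mRNAs, the 29 members had a median of -0.32 against -0.38 over all 2687 with 1 symbol, and 3 members were lower and 0 higher, where 26.4% of all were lower and 3.61% higher. Cyclic loess moved the median of all kept probe sets from -0.14 to -0.03 and that of the members from -0.26 to -0.15.

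**Figure D5:**
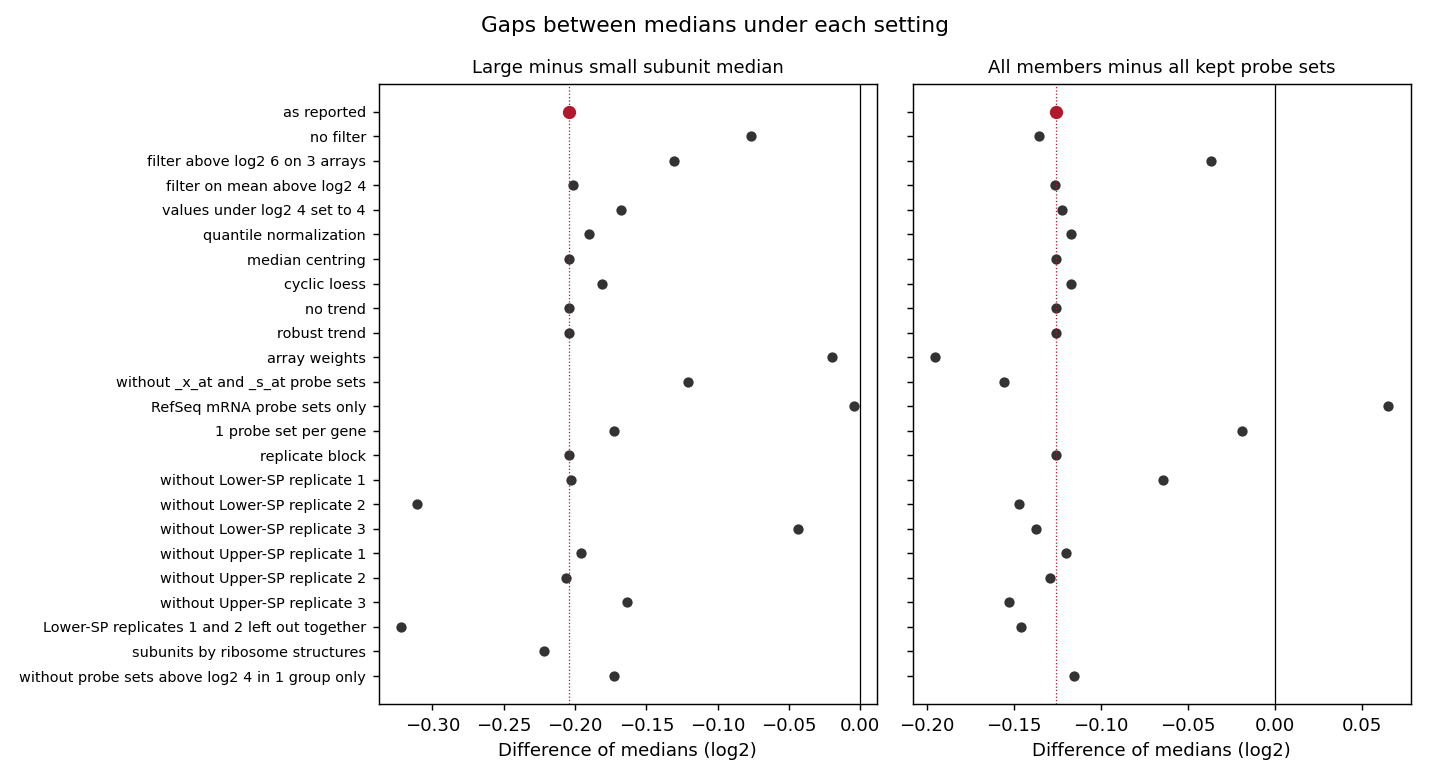
Large minus small subunit median difference (left) and median of all members minus that of all kept probe sets (right), in log2, under each setting, with the reported value in red. The subunit gap nears 0 with RefSeq mRNA probe sets, with array weights and without Lower-SP replicate 3. The gap to all kept probe sets is above 0 with RefSeq mRNA probe sets alone.

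The members were also counted by descent, beside the 17.5% of all kept probe sets lower and 10.7% higher. The 32 kept probe sets of large subunit proteins found only in mitochondria included 9 lower and 0 higher (28.1% lower, median -0.48, -0.44 with cyclic loess; 7 of 30 without the 2 above log2 4 in Upper-SP alone), and the 44 of large subunit proteins with bacterial relatives 7 lower and 0 higher (15.9% lower, near the background; median -0.17). In the small subunit, 0 of 12 probe sets of mitochondria-specific proteins were called in either direction by limma (1 had an unadjusted p under 0.05; median -0.09), and 5 were lower (16.7%) and 4 higher (13.3%) of 30 with bacterial relatives (median -0.10). The 9 lower ones of mitochondria-specific large subunit proteins come only from Mrpl38, Mrpl43, Mrpl44, Mrpl48, Mrpl50 and Mrpl52, so they are not independent. They include the 6 of the central protuberance given above. The brightest probe sets of Mrpl38, Mrpl44, Mrpl50 and Mrpl52 were not called. These classes follow the names used in ribosome structures, which set Mrps18a and Mrps18b among the mitochondria-specific proteins despite their relation to S18.

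The proteins that surround the mitochondrial ribosome were read from lists of their genes, each beside the 17.5% of all kept probe sets lower and 10.7% higher. Of the subunits whose symbols do not start with Mrp, Dap3, Ptcd3, Chchd1 and Gadd45gip1 each had 1 kept probe set and 0 were called by limma (0 had an unadjusted p under 0.05). Dap3, a GTP-binding protein of the small subunit, differed by -0.46 (adjusted p = 0.14). Among 17 probe sets of 13 translation factor genes, 3 were lower and 0 higher (median -0.50), but 2 of the 3, of Gfm2 and Tufm, were above log2 4 in Upper-SP alone, leaving 1 of 15. Gfm1, the elongation factor that moves the ribosome along the message, read 5.92, 5.98 and 4.90 against 7.23, 6.62 and 7.36 (-1.47, SE 0.36, adjusted p = 0.021). Gfm2, which splits ribosomes after termination, read 3.38 to 3.40 in Lower-SP and 4.49 to 4.59 in Upper-SP (at least 1.47-fold lower), and Tufm, which delivers aminoacyl-tRNA, was called at 1 probe set (at least 1.28-fold lower) and not at the other 2 (-1.02 and -0.48).

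Of 19 probe sets of 13 mitochondrial aminoacyl-tRNA synthetase genes, which charge tRNAs, 5 were lower and 0 higher (median -0.22), led by Nars2 (-1.28), Tars2 (-1.25 and -0.70) and Iars2 (-1.16). Assembly and ribosomal RNA genes had 6 of 36 lower and 0 higher (median -0.16). Mrm1, a methyltransferase of the large ribosomal RNA, read 4.43, 4.94 and 4.53 against 6.96, 6.75 and 6.68 (-2.16, SE 0.24, 4.48-fold, adjusted p = 0.0022), and Mrm3 (-0.97), another such methyltransferase, and Ngrn (-0.96), an assembly factor, also fell.

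Genes of mitochondrial DNA upkeep, transcription and RNA handling had 8 of 25 probe sets lower and 0 higher (median -0.57; 5 and 1 with cyclic loess). Polg, the DNA polymerase, fell by 1.81 at 1 of 3 probe sets, Lrpprc, which stabilises mitochondrial messages, by 1.68, and Ssbp1, the single-strand binding protein, 2.82-fold at 1 of 2, its other probe set differing by -0.15. Insertion factors and proteases of the inner membrane and matrix had 5 of 19 lower and 1 higher (median -0.33), with the protease subunit Spg7 at -1.19, the insertase Oxa1l at -0.92 (1 of 3 probe sets) and the chaperone Clpx at 1.22 (1 of 2).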

How the data were processed

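RNA from Lower-SP and Upper-SP cells, 3 arrays each, was labelled after 2 rounds of in vitro transcription, per the labels' protocols. The deposited values are log2 expression per probe set, made with GCOS 1.0 and GCRMA (background correction by probe sequence, scaling between arrays and summary of probes), per the submitters' processing notes; parameters and genome build are not given in the sources used here. Symbols came from the array annotation: 34945 of 45037 probe sets had 1 symbol, 932 several and 9160 none. A probe set was kept if above log2 4 on at least 3 arrays. Between 19317 and 19666 probe sets per array lay above that level.

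Groups were compared with limma 3.58.1 in R 4.3.3 (lmFit, eBayes with trend, two-sided, residual df 4), with Benjamini-Hochberg adjustment over all 19613 kept probe sets, and the fit was tested on simulated data. Where a group mean lay under log2 4, values under 4 were set to 4 for the fold, a lower bound. Members, lists and classes were chosen with earlier results of these data known, so no test over a list was made. Named are, per subunit, up to 8 called non-overlapping probe sets in each direction, the brightest, those nearest 0, genes with discordant probe sets, those at the edge of the filter, and some fixed symbols; from other lists, up to 3 called. Remaining called members are named for completeness. At the filter's edge, the third-highest value was 4.07 for Mrpl14 (1451307_at) and Mrpl52 (1455366_at) inside it, and 4.00 for Mrpl11 (1438080_at) and 3.95 for Mrpl34 (1438014_at) outside. Alternatives were other filters, scalings, variance models, choices of probe sets, a replicate block and leaving arrays out.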

Additional observations from a re-analysis of the deposited data

How the results depend on the processing

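As reported, 21 of 119 members were lower and 4 higher, beside 17.5% and 10.7% of all kept probe sets. With no filter on low values 7 and 1 of 156 were called (3.73% and 2.78% of all 45037). RefSeq mRNA probe sets alone gave 4 and 0 of 29 (27.6% and 3.61% of all 2800), 3 of these 4 among the 25. With 1 probe set per gene 11 and 2 of 75 were called (20.8% and 7.1% of all 9460). A 2-fold minimum left 5 and 2 (8.04% and 7.45% of all kept probe sets). Array weights gave 47 and 6, where 35.6% of all kept probe sets were lower and 19.1% higher. Leaving out probe sets above log2 4 in 1 group only, an alternative chosen after seeing the data, gave 19 and 4. The replicate block gave 12 and 2, 13 of these 14 among the 25, where 12.7% of all kept probe sets were lower and 8.57% higher. The labels do not say whether a number marks a shared pool, and same-numbered arrays deviated with correlations of -0.051 to -0.023. Leaving out 1 array at a time gave 3 to 23 lower and 0 to 4 higher, and moved the members' median from -0.30 to -0.20, the large subunit's from -0.36 to -0.26, the small subunit's from -0.26 to -0.052, the subunit gap from -0.31 to -0.044 and the gap to all kept probe sets from -0.15 to -0.064.

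The members' and large subunit medians were -0.11 and -0.13 with no filter, -0.18 and -0.21 with quantile normalization, -0.16 and -0.22 with median centring, -0.15 and -0.18 with cyclic loess, and -0.36 and -0.38 with array weights. The large subunit's was -0.26 with the filter at log2 6. The small subunit's was -0.36 with array weights and -0.32 with RefSeq mRNA probe sets. The subunit gap was -0.020 and -0.0043 under these settings. The gap to all kept probe sets was -0.20 with array weights, -0.037 with the filter at log2 6, -0.019 with 1 probe set per gene and 0.065 with RefSeq mRNA probe sets. The cause of these shifts was not tested.

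No called named probe set changed sign. For all but Mrps9 (1439210_at) this was fixed in the fits that leave out or weight arrays, as the groups do not overlap. Some uncalled probe sets near 0 changed sign. With quantile normalization, median centring and cyclic loess, Mrpl22 was 0.17, 0.096 and 0.19, Mrps36 0.033, 0.098 and 0.056, Mrps9 (1435843_x_at) 0.16, 0.097 and 0.19, and Mrps18b 0.019, 0.037 and 0.041. Mrps18c was 0.036 with centring and 0.014 with loess, Mrps12 0.029 with loess, Mrpl38 (1444217_at) 0.025 and 0.067 and Mrpl50 (1451266_at) -0.030 and -0.0087 with quantile and loess. With array weights Mrps36 was 0.079 and Mrps5 (1448488_at) -0.45. Without Lower-SP replicates 1 and 2, Mrpl22 was 0.68, Mrps12 0.39, Mrps9 (1435843_x_at) 0.087, Mrpl38 (1444217_at) 0.063, Mrpl52 (1460701_a_at) 0.032, Mrps36 0.0027 and Mrpl47 -0.0023. Over the fits that leave out 1 array, Mrps36 ran from -0.048 to 0.062, Mrps9 (1435843_x_at) from -0.055 to 0.061, Mrpl22 from -0.34 to 0.25, Mrpl47 from -0.081 to 0.086, Mrpl38 from -0.11 to 0.34 (1430610_at) and -0.2 to 0.037 (1444217_at), Mrpl50 (1451266_at) from -0.035 to 0.049, Mrps5 (1448488_at) from -0.35 to 0.19, Mrps12 from -0.38 to 0.025 and Mrps18c from -0.15 to 0.025.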

Other observations

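The proteins of the cytosolic ribosome, which translates nuclear messages, gave 30 of 85 kept probe sets lower in Lower-SP and 1 higher (35.3% and 1.18%, where all kept probe sets gave 17.5% and 10.7%), with a median difference of -0.18 and a median SE of 0.099, against 0.23 for the mitochondrial set. With cyclic loess they gave 9 lower and 12 higher and a median of -0.01 (all kept probe sets gave 12.4% lower and 13.2% higher), where the mitochondrial set gave 14 lower and 5 higher and a median of -0.15.

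Split by mean level, the mitochondrial members had a median difference of -0.30 under log2 6 (27 probe sets), -0.27 from 6 to 8 (46) and -0.24 from 8 up (46). All kept probe sets had -0.02, -0.17 and -0.21 in the same classes.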
